A study of Mus musculus with 18 samples.

Results

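The thermogenic fat genes described here are 8 genes that mark or drive heat production in brown and beige fat: Ucp1, Dio2, Otop1, Prdm16, Elovl3, Cidea, Kcnk3 and Ebf2. They were taken by gene symbol from the 27968 genes of 2 RNA-seq experiments on mouse epididymal white adipose tissue (eWAT). All 8 had a row in the table of the AAV8 experiment, and 6 had one in the tables of the Parkin experiment, where Ucp1 and Elovl3 were not analysed here. All 6 passed the filter on low values.

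The Parkin experiment compared the eWAT of 5 Control f/f mice with that of 5 ParkinAdi mice. Both groups were male C57BL/6J mice of 4 to 6 months on a high fat diet (HFD, 45% fat), and both carry loxP-flanked Parkin alleles. In ParkinAdi mice an adiponectin-Cre transgene deletes Parkin in adipocytes, whereas the whole pad sequenced also holds macrophages, vessels, progenitors and mesothelium. In a whole pad, fewer cells of a type and less RNA per cell cannot be told apart. The AAV8 experiment used wild-type males of 2 months with 4 weeks of HFD before injection, in which 1 pad received AAV8-Nqo1 under an adiponectin promoter, the opposite pad a control vector, and tissue was taken 4 weeks later (4 pads per vector). The AAV8-Nqo1 vector went into the left pad, so vector and body side cannot be told apart.

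Brown adipocytes burn fuel to make heat, mainly through the uncoupling protein Ucp1, which lets protons flow back across the inner mitochondrial membrane without making ATP. Noradrenaline from sympathetic nerves starts this through beta-adrenergic receptors and cAMP, and Dio2 amplifies it by making active thyroid hormone inside the cell. Prdm16 and Ebf2 are transcription factors that set and keep brown and beige identity. Epididymal fat of mice is a white depot that is known to take on few brown features.

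The values of the Parkin experiment are regularized log (rlog) values per library, a log2 scale on which noisy differences are drawn toward 0, so a difference understates the change of a low gene. Libraries are named C1 to C5 for Control f/f and P1 to P5 for ParkinAdi, following the deposited column order. The genotype difference of each gene was tested in limma (moderated, two-sided) with Benjamini-Hochberg adjustment over 19012 genes. Single genes were also put to a two-sided exact permutation test of 5 against 5 libraries, which can reach a p of 0.00794 at the lowest.

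The libraries labelled P2 and P5 held transcripts of the epididymis, the duct beside the pad (Ces5a 20.05 in P2 against 5.59 to 8.45 in the others, Gpx5 12.70 in P5 against 4.12 to 5.89), so the differences of the members are also given without P2, and other genes where leaving it out changed the call, the sign or the size by over 1.5 times. Values rose with exon length across genes, relative to the mean of all libraries, in 6 libraries (C1, C2, C3, P1, P2 and P5, the longer set) and fell with it in 4 (C4, C5, P3 and P4, the shorter set). The depth of each library is unknown, since rlog values hold no read totals. Adipoq, the adiponectin gene of adipocytes, had a mean of 172000 normalized counts, and all 15 white adipocyte markers were in the table.

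Promoter sequences are shown for the deiodinase gene Dio2 and the proton channel gene Otop1, which had the largest differences between genotypes, and for Ucp1, the defining gene of the program. They are RefSeq sequences of GRCm38.p6, 250 bases before to 50 after the transcript start, and 4 of the 8 genes were matched (Prdm16 is the other). Capitals mark matches, on either strand, to the TATA box TATAAA, the cAMP response element TGACGTCA or the nuclear receptor core motif AGGTCA.
Dio2, minus strand, chr12:90738989-90739288: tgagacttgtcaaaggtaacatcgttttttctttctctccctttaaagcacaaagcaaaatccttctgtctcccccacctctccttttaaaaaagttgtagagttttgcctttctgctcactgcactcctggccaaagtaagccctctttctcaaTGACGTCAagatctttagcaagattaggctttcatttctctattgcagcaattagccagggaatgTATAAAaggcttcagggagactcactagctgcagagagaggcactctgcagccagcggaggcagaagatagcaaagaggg
Ucp1, plus strand, chr8:83290098-83290397: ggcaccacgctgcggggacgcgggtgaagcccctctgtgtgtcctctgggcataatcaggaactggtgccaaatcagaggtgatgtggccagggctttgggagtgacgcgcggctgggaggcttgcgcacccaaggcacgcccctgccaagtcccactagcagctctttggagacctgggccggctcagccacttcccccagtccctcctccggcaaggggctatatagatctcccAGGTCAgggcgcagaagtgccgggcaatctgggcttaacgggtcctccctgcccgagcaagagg
Otop1, plus strand, chr5:38277154-38277453: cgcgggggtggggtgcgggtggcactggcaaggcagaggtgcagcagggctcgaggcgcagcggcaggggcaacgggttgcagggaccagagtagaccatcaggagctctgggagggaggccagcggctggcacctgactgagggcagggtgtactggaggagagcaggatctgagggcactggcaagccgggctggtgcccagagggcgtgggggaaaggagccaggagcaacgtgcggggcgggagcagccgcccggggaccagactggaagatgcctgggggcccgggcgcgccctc

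The Dio2 window held a full cAMP response element 95 bases before the start and a TATA box 30 bases before it. Of 32851 promoters of this length, 1.79% held TGACGTCA and 13.6% TATAAA. The Ucp1 window held AGGTCA 14 bases before the start, a motif found in 16.3% of promoters. The windows of Otop1 and Prdm16 held none of the 3 motifs. A match is a run of letters and not evidence of binding. The RefSeq start of Dio2 lies 600 bases upstream of the gene start in GENCODE M21, and that of Otop1 lies 1432 bases downstream of it.

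In the AAV8 experiment Ucp1 was the lowest of the 8 genes per length of exon. The authors' mean over all pads was 32.8 normalized counts for Ucp1, or 20.1 per kb of exon. Dio2 stood at 30.9 per kb (mean 179.0 counts), Elovl3 at 49.2 (97.2 counts) and Prdm16 at 77.6 (724 counts). Otop1 was at 141 per kb (484 counts), Cidea at 235 (262 counts), Ebf2 at 277 (1920 counts) and Kcnk3 at 735 (2920 counts). On this per-kb scale Kcnk3, a potassium channel gene, was 36.6 times as high as Ucp1, Ebf2 13.8 times and Cidea 11.7 times. Adipoq, at 289000 per kb, was 2640 times the median of the 8 genes. Ucp1 lay above 29.9% and Kcnk3 above 79.9% of the 27356 genes by mean count, and Elovl3, a fatty acid elongase that cold induces in brown fat, above 40.3%. These means pool AAV8-Control and AAV8-Nqo1 pads. They give a level over injected pads of both vectors in HFD-fed mice and no comparison of the vectors. Nqo1, the gene the vector carries, had a pooled mean of 107000 normalized counts.

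**Figure D1:**
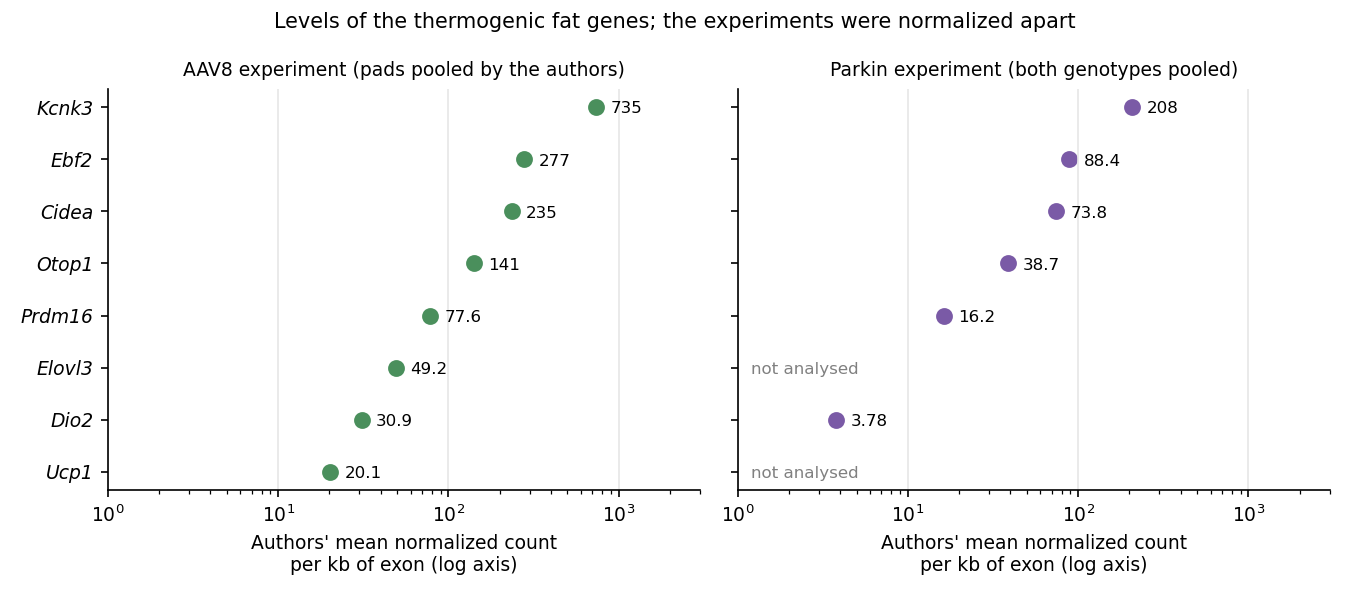
Authors' mean normalized count per kb of exon (log axis) of the 8 thermogenic fat genes in the AAV8 experiment (left) and the Parkin experiment (right), 1 point per gene over all libraries of an experiment. Kcnk3 is highest in both, at 735 and 208, Ucp1 is lowest on the left at 20.1 and Dio2 lowest on the right at 3.78; each panel has its own normalization, so positions cannot be compared between panels.

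The 6 genes of the Parkin experiment stood in the same order per kb. The authors' mean per kb over its 10 libraries was 208 for Kcnk3, 88.4 for Ebf2, 73.8 for Cidea, 38.7 for Otop1, 16.2 for Prdm16 and 3.78 for Dio2. Per-library levels per kb were then approximated as 2 to the power of the rlog value. Kcnk3 was above Ebf2 in 5 of 5 libraries of each genotype. Ebf2 and Cidea could not be ordered, since Ebf2 was above Cidea in 3 of 5 Control f/f and 3 of 5 ParkinAdi libraries. Otop1 was above Prdm16 in 3 of 5 Control f/f libraries and in 0 of 5 ParkinAdi libraries. Prdm16 was above Dio2 in all 10.

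No thermogenic fat gene differed between genotypes after adjustment over all genes, and 0 of 19012 genes (0%) passed an adjusted p of 0.05 in limma. At an unadjusted p under 0.05, Otop1, Kcnk3 and Dio2 had lower values in ParkinAdi eWAT, which makes 3 of 6 members beside 3.56% of all genes tested. Without P2 these were 2 of 6, Otop1 and Kcnk3, beside 3.25% of all genes. None of the 6 was higher at that threshold in this fit, beside 1.46% of all genes, while Ebf2 was higher without C3 or with library weights. Of the 6 differences 5 were below 0, beside 43.1% of all genes, and their median was −0.34 beside 0.03 over all genes. The values of the genotypes overlapped for each of the 6, and did not overlap in 1.06% of all genes.

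**Figure D2:**
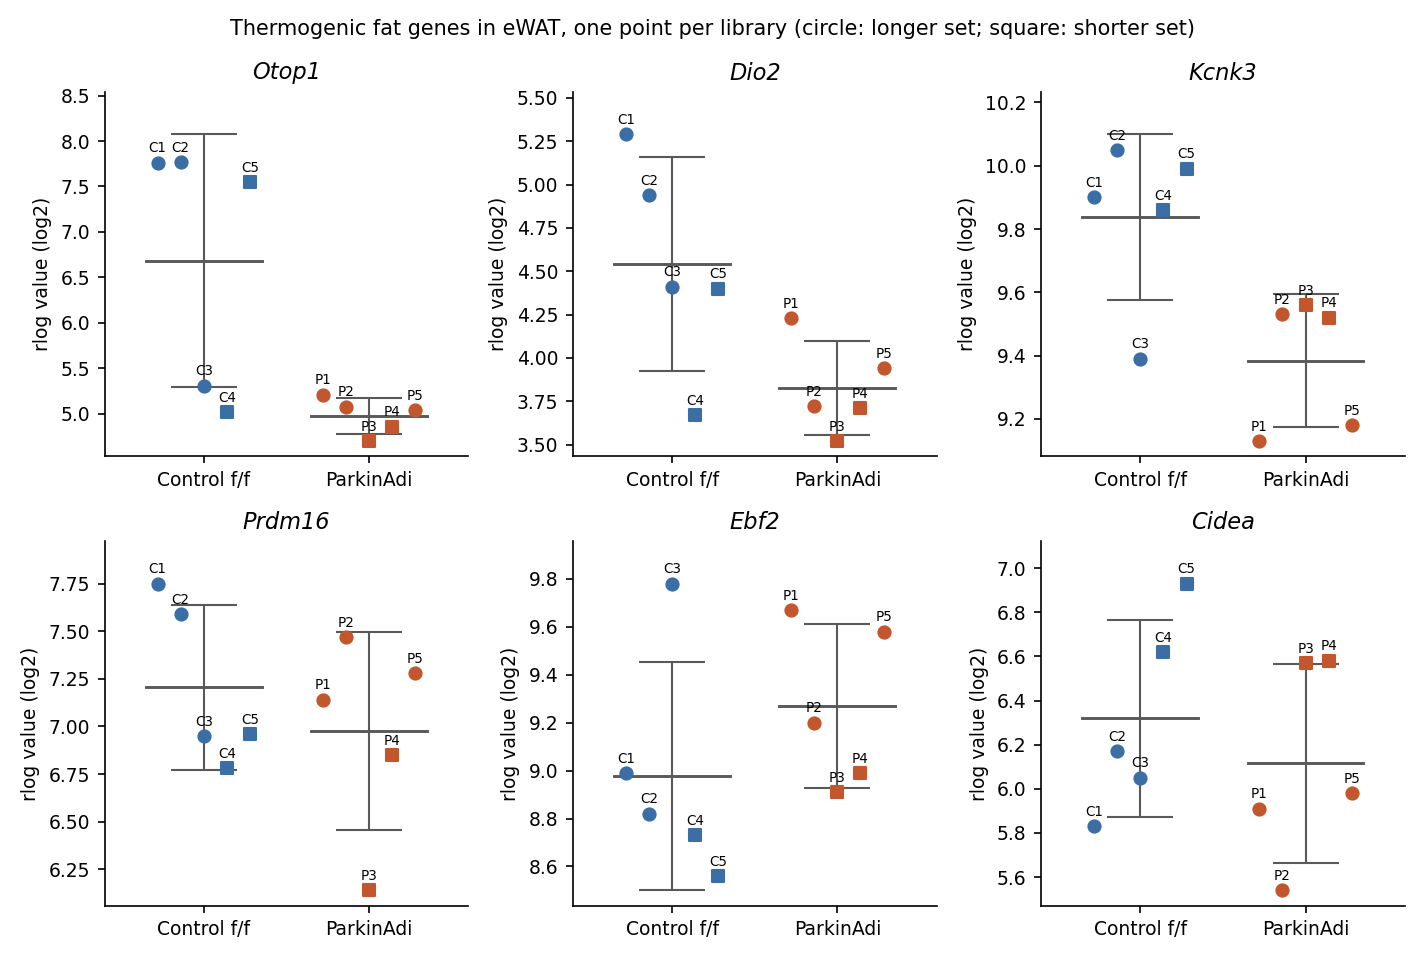
Rlog value (log2) in each library for the 6 thermogenic fat genes of the Parkin experiment, with the mean and SD of 5 libraries per genotype. Otop1 is at 7.55 to 7.77 in C1, C2 and C5 and at 4.70 to 5.31 in the other 7 libraries, and Cidea is higher in the squares (shorter set) than in the circles of its own genotype.

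Otop1 encodes otopetrin 1, a proton channel found in the inner ear and taste cells, and in brown fat. It lies on the plus strand of chromosome 5 from 38275972 to 38304217 (GRCm38, ENSMUSG00000051596). Its rlog value was 7.76, 7.77, 5.31, 5.02 and 7.55 in C1 to C5 and 5.21, 5.08, 4.70, 4.86 and 5.04 in P1 to P5. The control values fell into a high trio (C1, C2 and C5) and a low pair (C3 and C4) that lay within or just above the ParkinAdi range. As approximate normalized counts these are 217, 218, 39.7, 32.4 and 187 in the controls and 26.0 to 37.0 in ParkinAdi libraries. The shrinkage of rlog values limits them, since the authors' mean of Otop1 was 1.56 times the mean of these approximate counts. The mean was 6.68 ± 1.39 in Control f/f and 4.98 ± 0.20 in ParkinAdi eWAT (SD, n = 5 each). The difference was −1.70 (standard error 0.55, limma p = 0.0104, adjusted p = 0.696, exact permutation p = 0.0317). The SD of the controls was thus nearly as large as the difference, and the ParkinAdi libraries were tightly grouped. Without P2 the difference was −1.73 (standard error 0.61). It was −1.84 within the longer set and −1.50 within the shorter set.

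Kcnk3 encodes the 2-pore potassium channel TASK-1, which in brown adipocytes sets the membrane potential and restrains adrenergic signalling. It lies on the plus strand of chromosome 5 from 30588170 to 30625271. Its rlog value was 9.90, 10.05, 9.39, 9.86 and 9.99 in C1 to C5 and 9.13, 9.53, 9.56, 9.52 and 9.18 in P1 to P5. All ParkinAdi libraries lay below 4 of the 5 controls, and C3 alone reached into their range. The mean was 9.84 ± 0.26 in Control f/f and 9.38 ± 0.21 in ParkinAdi eWAT (SD, n = 5 each). The difference was −0.45 (standard error 0.16, limma p = 0.0138, adjusted p = 0.701, exact permutation p = 0.0317), or 73.0% of the control level. It was −0.49 without P2, −0.50 within the longer set and −0.39 within the shorter set. Kcnk3 was the most abundant of the 6 genes per kb and the one with the smallest spread within each genotype apart from Otop1 in ParkinAdi libraries.

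Dio2 encodes the type 2 iodothyronine deiodinase, which turns thyroxine into the active hormone T3 and is induced by cAMP in brown fat; its promoter is the one above that holds a cAMP response element. It lies on the minus strand of chromosome 12 from 90724552 to 90738438. Its rlog value was 5.29, 4.94, 4.41, 3.67 and 4.40 in C1 to C5 and 4.23, 3.72, 3.52, 3.71 and 3.94 in P1 to P5. C1, C2, C3 and C5 exceeded every ParkinAdi library, while C4 lay among them. The approximate normalized counts were low, at 12.7 to 39.1 in Control f/f and 11.5 to 18.8 in ParkinAdi libraries. The mean was 4.54 ± 0.62 in Control f/f and 3.83 ± 0.27 in ParkinAdi eWAT (SD, n = 5 each). The difference was −0.72 (standard error 0.29, limma p = 0.031, adjusted p = 0.882), and the exact permutation test gave p = 0.0556. It was −0.69 without P2 and then missed the unadjusted threshold, −0.92 within the longer set and −0.42 within the shorter set.

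Prdm16 encodes a zinc finger coregulator that keeps brown and beige adipocytes in their fate. It lies on the minus strand of chromosome 4 from 154316125 to 154636873. Its rlog value was 7.75, 7.59, 6.95, 6.78 and 6.96 in C1 to C5 and 7.14, 7.47, 6.14, 6.85 and 7.28 in P1 to P5. The ranges overlapped, and P3 was the lowest library. The difference of −0.23 (standard error 0.28, 95% interval −0.84 to 0.39, exact permutation p = 0.484, adjusted limma p = 1) was smaller than the SD of either genotype (0.43 and 0.52, n = 5 each). It ran from −0.35 without P2 to −0.09 without C1 and −0.02 without P3, and was −0.49 without P2 and P5, so its size depends on single libraries.

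Ebf2 encodes the early B cell factor that marks brown fat precursors and opens chromatin at thermogenic genes. It lies on the plus strand of chromosome 14 from 67233292 to 67430918. Its rlog value was 8.99, 8.82, 9.78, 8.73 and 8.56 in C1 to C5 and 9.67, 9.20, 8.91, 8.99 and 9.58 in P1 to P5. C3 was the highest library of all, and the other 4 controls lay at or below 8.99. The difference of 0.29 (standard error 0.24, 95% interval −0.24 to 0.82, exact permutation p = 0.286, adjusted limma p = 1) was the only one above 0. Without P2 it was 0.31. Without C3 it was 0.49 (standard error 0.19, limma adjusted p = 0.629), which is past the unadjusted threshold, and with library weights 0.62 (standard error 0.18, limma adjusted p = 0.0956).

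Cidea encodes a lipid droplet protein that is abundant in brown fat and is used as a marker of browning in mice. It lies on the plus strand of chromosome 18 from 67343604 to 67367785. Its rlog value was 5.83, 6.17, 6.05, 6.62 and 6.93 in C1 to C5 and 5.91, 5.54, 6.57, 6.58 and 5.98 in P1 to P5. The 4 libraries of the shorter set were the 4 highest, at 6.57 to 6.93, in either genotype. Cidea has the shortest exon length of the 8 genes (1.11 kb). The difference of −0.21 (standard error 0.27, 95% interval −0.80 to 0.39, exact permutation p = 0.476, adjusted limma p = 1) was −0.06 without P2 and became 0.03 without P2 and P5, so no direction can be given.

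Adding the library set to the model lowered the standard errors. The sets are split alike between the genotypes, so this layout fixes the differences in advance and their lack of change is no test. The adjusted limma p of Otop1, Kcnk3 and Dio2 was then 0.267, 0.222 and 0.264, and all 3 stayed under an unadjusted 0.05. In that fit 7.33% of all genes were lower at an unadjusted p under 0.05. With library weights the same 3 genes passed an adjusted p of 0.05 as lower (Kcnk3 0.024, Otop1 0.0246, Dio2 0.0479, differences of −0.75, −2.42 and −0.86), beside 2.3% of all genes. Library C2 was weighted 12.4 there and the remaining libraries 0.302 to 2.54, so 1 control dominates the weighted values.

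**Figure D3:**
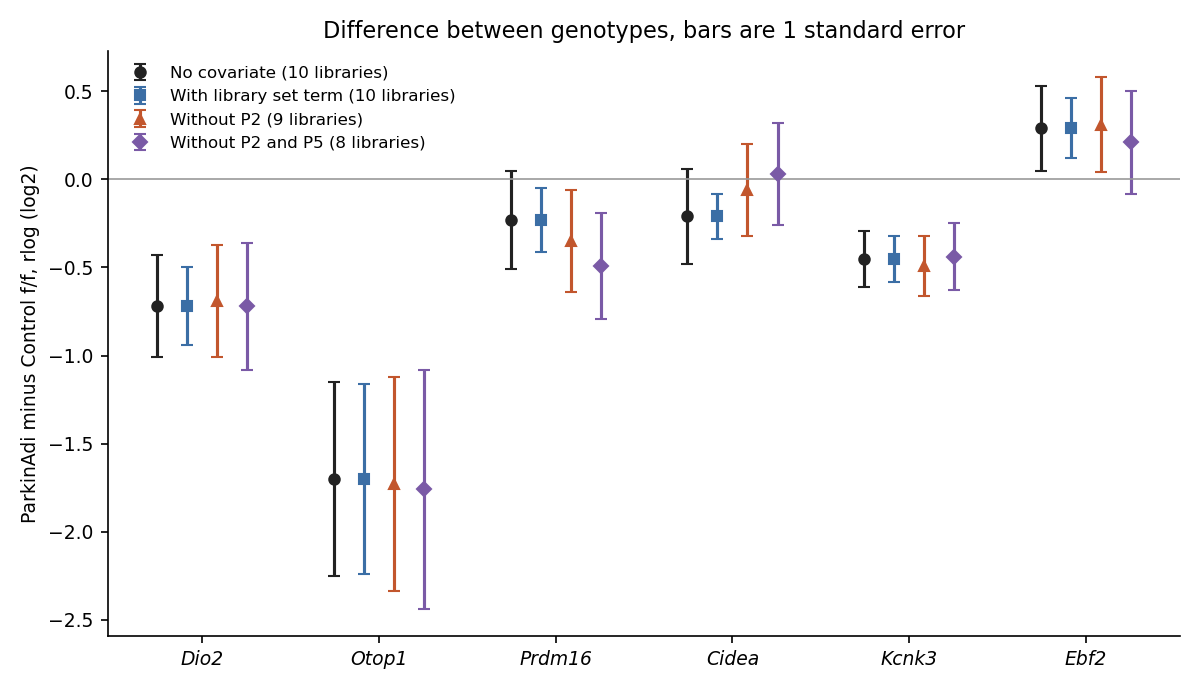
ParkinAdi minus Control f/f rlog difference (log2) of each of the 6 genes in 4 limma fits, with bars of 1 standard error. Otop1 (−1.70 to −1.76), Dio2 (−0.69 to −0.72) and Kcnk3 (−0.44 to −0.49) keep their place below 0, and Cidea moves from −0.21 to 0.03 without P2 and P5. By the balanced layout the fit with the library set gives the same differences as the fit without a covariate.

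Genes whose pattern over the 10 libraries was most like that of each member were taken by Pearson's r after centring within each library set. These r values are a description, and the libraries share the genotype and any tissue carried over. For Otop1 they were Tph2, the tryptophan hydroxylase of neurons (r = 0.997), and Mstn, which encodes the growth factor myostatin (r = 0.992). Tph2 was at 10.79, 11.35, 7.67, 8.12 and 11.56 in C1 to C5 and at 7.27 to 7.88 in ParkinAdi libraries, so the high trio was the same as for Otop1. Mstn was at 6.37, 6.71, 3.95, 4.26 and 6.73 in C1 to C5 and at 3.30 to 4.01 in ParkinAdi libraries. Slc36a2, an amino acid transporter that marks brown fat, was also highest in C1, C2 and C5 (12.19, 12.61 and 12.59, against 11.04 to 11.76 elsewhere). Pvalb, the calcium buffer parvalbumin of fast muscle, was at 7.35 or above in these 3 controls, at 6.74 in C4 and at 5.18 to 6.16 in the rest. The summed level of the skeletal muscle markers, Pvalb included, ran from 9.83 to 11.14 in Control f/f and from 9.64 to 11.25 in ParkinAdi libraries. The value of 11.25 was that of P2, and the highest ParkinAdi sum without P2 was 10.28. Acta1 had means of 9.80 and 9.82 in Control f/f and ParkinAdi libraries, and Ckm, Myh1, Myh2, Myh7 and Tnnc2 were not analysed here.

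**Figure D4:**
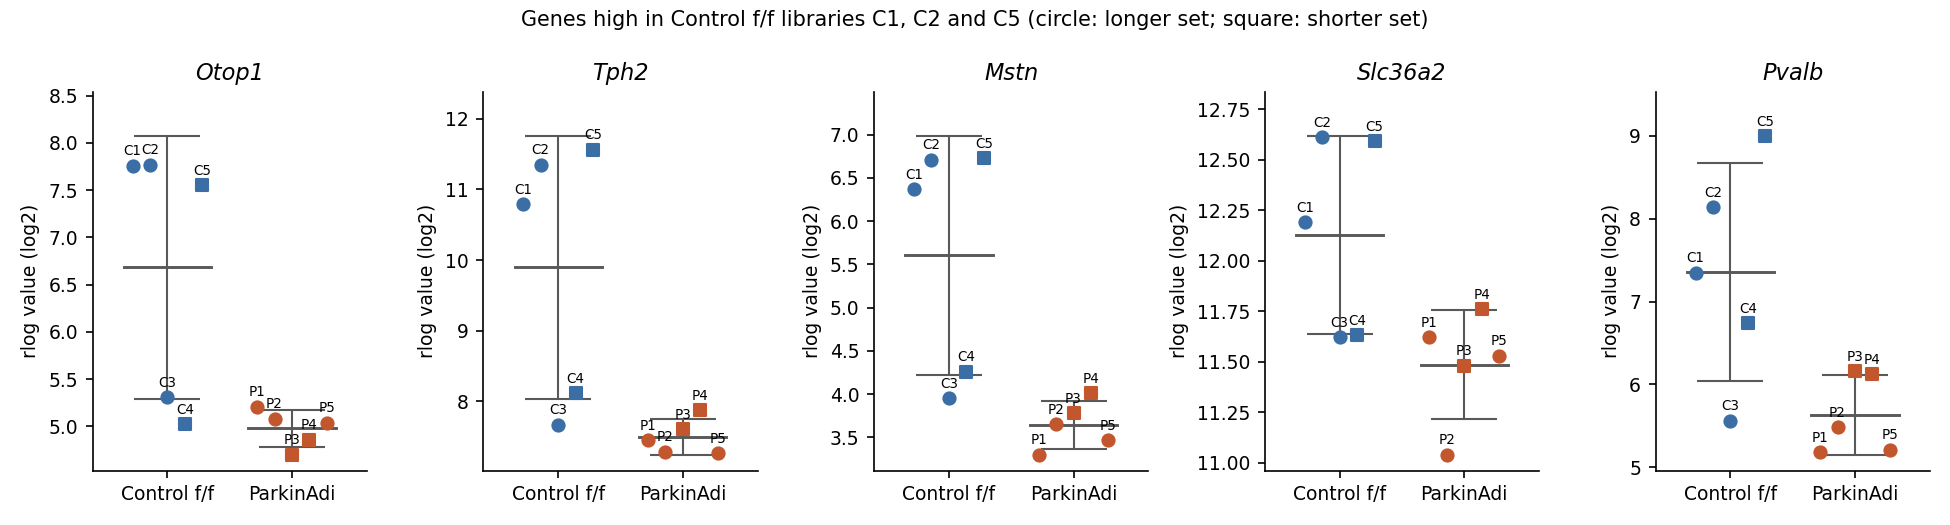
Rlog value (log2) per library of Otop1, of Tph2 and Mstn, the genes most like it, and of Slc36a2 and Pvalb, with the mean and SD of 5 libraries per genotype. In each panel C1, C2 and C5 are the 3 highest libraries, at 10.79 to 11.56 for Tph2 and 12.19 to 12.61 for Slc36a2.

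For Kcnk3 the nearest genes were Ass1, the argininosuccinate synthase of the urea cycle (r = 0.979), and Gm5424 (r = 0.978), annotated as a processed pseudogene, a class that can share reads with a parent gene. For Dio2 they were Fam20c, a kinase of secreted proteins, and Arhgef6, a guanine nucleotide exchange factor (r = 0.981 each). For Cidea they were Acadm, an enzyme of fatty acid oxidation (r = 0.941), and Fam49a (0.933). For Prdm16 they were Atg4c, an autophagy protease (0.964), and Cyp4f17 (0.925), and for Ebf2 the receptor phosphatase Ptprm (0.992) and Hoxc4 (0.970). The 6 members did not appear in each other's nearest pair.

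In the limma fit without covariate or weights, none of the genes in the lists around the members passed the adjusted threshold. With library weights several passed. Among those lower there were Ucp2 (limma adjusted p = 0.024), Plin2 (0.0246), Pdk4 and Fgf21 (0.0265 each) and Slc36a2 (0.0305). Over all genes the weighted fit called 438 lower and 105 higher. Higher or lower below refers to an unadjusted limma p under 0.05. Of 23 other transcription factors and cofactors of brown and beige fat that were tested, 0 were lower and 0 higher at an unadjusted limma p under 0.05 (median −0.01). Without P2 the transcription factor gene Gata6 was higher (0.47, from 0.37 with all libraries). Pparg, the master regulator of adipocytes, differed by 0.10 (0.21 without P2) and Ppargc1a, the coactivator Pgc1α, by 0.17 (standard errors 0.18 and 0.33). Of 14 repressors of the program 0 passed in either direction (median 0.04), with Nrip1 at 0.37 and Nr2f2 at 0.42 (standard errors 0.25 and 0.21). Of 21 genes of adrenergic and cAMP signalling 1 was higher, the receptor gene Gprc5a (0.74, standard error 0.33), and its value in P2, 7.61, was the highest. Without P2 its difference was 0.44 (standard error 0.23) and no longer passed. Adrb3, the beta-3 adrenergic receptor of adipocytes, was at 11.68, 11.89, 13.12, 13.19 and 12.52 in C1 to C5 and at 13.11, 12.41, 13.52, 13.44 and 12.93 in P1 to P5. The 2 controls lowest in Adrb3, C1 and C2, were among the 3 highest in Otop1. The difference of Adrb3 was 0.60 (standard error 0.33), which did not pass. It was higher without P2 (0.77, standard error 0.32) and without P2 and P5 (0.88), and also passed the unadjusted threshold with the library set in the model. In that fit 2 of these adrenergic genes were higher, and Adcy3 (−0.42) and Pde4d (−0.28) were lower (standard error 0.10 each). Among the repressors 2 were higher, Nrip1 and Nr2f2, and 1 lower, Zfp423. Among the transcription factors and cofactors 2 were higher and 0 lower. Over all genes 842 were higher and 1394 lower in that fit.

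Of 9 tested genes of thyroid hormone handling other than Dio2, 0 passed (median 0.12). Crym, which binds thyroid hormone in the cytosol, differed by 0.74 and Ttr, its plasma carrier transthyretin, by −0.91 (standard errors 0.34 and 0.50). Without P2 Crym was higher (0.88, standard error 0.35), as it was with the library set in the model. Of 32 brown and beige effector genes 3 were lower at an unadjusted limma p under 0.05 (median −0.08). These were Pdk4, the kinase that blocks pyruvate oxidation (−0.79, standard error 0.25), Slc36a2 (−0.64, standard error 0.23) and the hormone gene Fgf21 (−0.57, standard error 0.24). Without P2 only Pdk4 and Slc36a2 (−0.75 and −0.53) were lower and Fgf21 was at −0.47. Without P2 and P5 only Pdk4 was (−0.90), with Slc36a2 at −0.50 and Fgf21 at −0.32. With the library set in the model 5 effector genes were lower and 1 higher. Cox8b and Cox7a1, respiratory chain subunits of brown fat and muscle, differed by −0.24 and −0.03 (standard errors 0.55 and 0.44), and by 0.06 and 0.12 without P2.

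Of 12 other elongases, desaturases and synthases of fatty acids, 0 passed (median 0.03), with Elovl1 at −0.23 and Elovl6 at 0.35 (standard errors 0.11 and 0.28). Without P2 Elovl6 was at 0.10. With the library set in the model 1 of these genes was lower, Elovl1, and 2 were higher. Of 15 tested genes of other uncouplers and futile cycles, Ucp2 was lower and Ckmt1 higher (median −0.07). Ucp2, a mitochondrial carrier that macrophages also express, was at 12.34 to 13.32 in Control f/f and 11.70 to 12.28 in ParkinAdi libraries, with no overlap (−0.80, standard error 0.20, limma adjusted p = 0.62). Ckmt1, a mitochondrial creatine kinase, differed by 0.81 (standard error 0.35), but by 0.61 (standard error 0.34) without P2, where it did not pass. With the library set in the model 2 genes of this list were lower, Ucp2 and Pm20d1, and 1 was higher. Of 5 other lipid droplet proteins (Cidec and 4 perilipins), Plin2 was lower (−0.69, standard error 0.21), though at −0.45 it did not pass without P2 and P5. Cidec, the relative of Cidea in white fat, differed by −0.23 (standard error 0.31), and by −0.07 without P2.

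**Figure D5:**
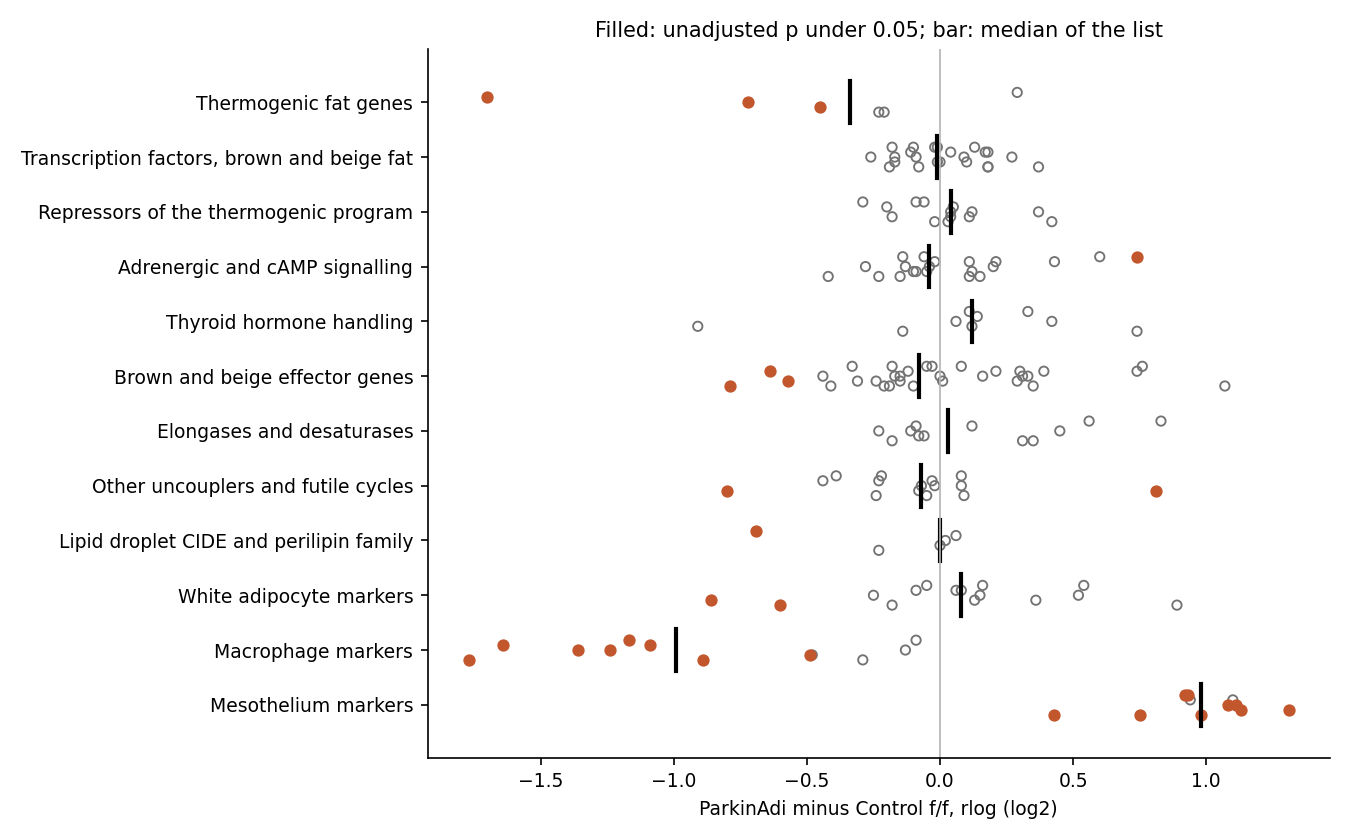
ParkinAdi minus Control f/f rlog difference (log2) of each tested gene by list, filled where the unadjusted limma p is under 0.05, with a bar at the list's median. The medians of the lists around the members lie between −0.08 and 0.12, that of the 6 members at −0.34, that of macrophage markers at −0.99 and that of mesothelium markers at 0.98.

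Markers of other cells differed between the same libraries. Of 12 macrophage markers 12 had a difference below 0 and 8 were lower at an unadjusted limma p under 0.05 (median −0.99). Leaving out Lpl, which adipocytes express too, their summed level ran from 14.83 to 15.65 in Control f/f and from 14.33 to 15.20 in ParkinAdi libraries. C3, low in Otop1 and Kcnk3, had the lowest macrophage sum of the controls (14.83), while C4, low in Otop1 and Dio2, had 15.65. Of 11 mesothelium markers 11 were above 0 and 9 higher at an unadjusted p under 0.05 (median 0.98), with a summed level of 10.35 to 12.13 in Control f/f and 11.67 to 13.19 in ParkinAdi libraries. All markers of these 2 lists were detected. Among white adipocyte markers 0 of 15 were higher and 2 lower, Lep (−0.86) and Mest (−0.60), with a median of 0.08. Without P2 the median of these adipocyte markers was 0.23, with 0 higher and 2 lower. Without P2 and P5 it was 0.45, with 2 higher and 2 lower. Without P2, 8 macrophage markers were lower and 7 mesothelium markers higher at that threshold. The part of other cell types in the values of Otop1, Kcnk3 and Dio2 was not tested.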

How the data were processed

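The authors isolated RNA from frozen eWAT (RIN above 7), made libraries with an mRNA kit, sequenced them in 2 pools, counted reads with Rsubread 2.4.2 on GRCm38 (annotation 97) and used DESeq2 1.30.0. The sources used here do not give whether counting used strand. They deposited rlog values (log2 scale) per library for 21756 genes, and for each experiment a comparison table. Its mean normalized count, a signal per gene pooled over libraries, was used as deposited. Its log2 fold changes, standard errors, statistics and p-values are the authors' own and were not used. No counts or depths were used, and the experiments were normalized apart.

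Genes whose mean rlog value reached log2 of 10 were kept. Genotypes were compared with limma 3.58.1 (R 4.3.3; lmFit, eBayes with trend), tested on simulated data. The simulated noise was independent, with the same SD in both genotypes and without library sets or carried-over tissue. It is therefore no test of the fit under those features. Deposited columns carry animal numbers and show the genotype only, and whether replicates came from separate litters is not stated, so p-values measure the spread between these mice. Levels between genes were divided by exon length (GENCODE M21). The members and the 18 other gene lists were chosen with earlier results of these data known. Named genes are the members, Nqo1, up to 4 of smallest p and the 2 highest of each list, genes described by role, and the 2 nearest in pattern to each member. Cox8b, Cox7a1, Ppargc1a and Ces5a were chosen after their values were seen. The level of the gene deleted in ParkinAdi mice is not reported here.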

Additional observations from a re-analysis of the deposited data

Results flagged for a closer look

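In 14 sets of 5 libraries (6 thermogenic fat genes and Nqo1 in each genotype), 1 held a library far from the other 4, where chance gives about 1 in 20. Kcnk3 in Control f/f library C3 was 9.39, against 9.86 to 10.05 in the other controls.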

How the results depend on the processing

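The count of genes called, 0 over 19012 genes, became 543 with library weights and 0 to 11 when each replicate was left out, with 11 (all lower) without C3. Of 137 alternative values for the 6 differences, 133 were counted as unchanged. Settings that change only the filter, the intensity trend, the moderation or the library set term leave each difference as it was by construction. For those values only the p could move, so their share of the count is no test of the differences. Where a value has a p, this meant the same direction and the same side of the adjusted threshold. No member passed that threshold in the fit without covariate or weights, so unchanged there means not called. Values within a library set have no p, and for them it meant the same direction and a shift below the gene's SD. With library weights Dio2 (−0.86), Otop1 (−2.42) and Kcnk3 (−0.75) passed, and Cidea reversed to 0.03 without P2 and P5, an alternative chosen after seeing the data, as were the set term without P2 and the removal of each library's length trend. The cause was not tested. The median of the members ran from −0.55 with library weights to −0.23 with a minimum of 50, which leaves out Dio2. Without P2 and P5 the members below 0 were 4 of 6. The 3 members under an unadjusted p of 0.05 became 2 without C1, C2, P2, P3 or P4 and without P2 and P5. The share of all genes lower at that threshold also fell in these settings (3.25% without P2, from 3.56%), but rose without P3. Over all genes the number lower also fell without C5 or P5 (485 and 560, from 677), while the members stayed at 3. Why the count of members dropped was not tested. Ebf2 was higher at that threshold without C3 (0.49) and with library weights (0.62). The median level of the 8 genes in the AAV8 experiment was 373 normalized counts and 109 per kb of exon. No paired analysis was possible because the deposited columns carry no replicate numbers of the labels and the AAV8 table holds no values per pad. Unknown depth, pooled AAV8 means and the shrinkage of rlog values limit what can be compared. The authors' mean over the mean of 2 to the rlog value was 1.56 for Otop1, 1.12 for Dio2 and 1.03 to 1.06 for the other members.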
